A study of Mus musculus with 20 samples.

Results

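Fatty acids enter cells partly through carriers such as CD36, are activated to acyl-CoA, pass into mitochondria through the carnitine shuttle and are shortened there by beta oxidation, which feeds electrons to the respiratory chain through electron transfer flavoprotein. Peroxisomes shorten very long chains, and acetyl-CoA can be turned into, or recovered from, ketone bodies. The nuclear receptor PPARα, helped by the coactivator PGC-1α, switches on much of this route during fasting, and at birth the newborn passes from placental glucose to milk fat. The module described here lists 34 genes of these steps. Each gene was taken by its symbol in the array's probe table, through the probe set of that symbol alone with the highest mean, and was kept if it lay above the array median on 4 or more of 20 arrays. Of the 34 genes, 30 were kept, among 17993 genes kept from the 30063 with a named probe set. Acsl1, which activates long-chain fatty acids, and Ucp2, a mitochondrial carrier, had no probe set of their own name and were not analysed here. Etfb and Ppard shared their probe set with a second symbol and were not tested.

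The samples were whole pancreas of C57BL/6J mice that lacked inceptor or were wild type at its locus. Inceptor is a membrane receptor that dampens insulin signalling; its gene is Elapor1, which the labels call Iir. At P0, the day of birth, there were 6 Iir -/- and 5 Iir +/+ arrays, and at embryonic day 18.5 (E18.5) there were 5 Iir -/- and 4 Iir +/+ arrays. Pups of both genotypes were starved for 5 h at P0, whereas at E18.5 the mother was starved for 2 h. The labels also number the samples from 1 to 12 at P0 and from 13 to 22 at E18.5. Age, starvation and this numbering therefore cannot be told apart. Sex was not determined and no Cre or promoter was named. The labels leave unsaid whether arrays come from different animals, so each p-value rests on the spread among arrays, which may be technical.

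Elapor1 lay at 6.05 ± 0.30 log2 signal in P0 knockout and 11.54 ± 0.35 in P0 wild-type arrays (SD, n = 6 and 5), and the E18.5 means differed by -5.55 ± 0.19 in the same direction. Pancreatic identity was clear in every array: the mean of 9 acinar markers ran from 16.54 to 17.36 and that of 10 endocrine markers from 11.21 to 12.07 log2. RNA of neighbouring organs varied. The mean of 15 liver markers ran from 9.30 to 12.85 in P0 knockout, 7.40 to 11.29 in P0 wild-type, 9.32 to 12.50 in E18.5 knockout and 9.66 to 11.76 in E18.5 wild-type arrays. In 5 arrays the mean of the intestinal or the skeletal muscle markers was over 7 log2, namely P0 knockout array 4, E18.5 knockout arrays 1, 2 and 4 and E18.5 wild-type array 4. Of the adipocyte markers with a probe set, 4 of 6 brown ones (Ucp1, Cidea, Elovl3 and Dio2) and 4 of 5 white ones (Adipoq, Plin1, Cidec and Lep) lay at or below the array median on every array. The others, among them the brown marker Cox7a1, lay above it on some. Below, levels are log2 signals, differences are log2 differences ± SE from limma, and a gene is said to have risen or fallen when its p, adjusted over all 17993 genes by the Benjamini-Hochberg method, was under 0.05.

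In wild-type pancreas, 10 of the 30 genes rose at birth and 1 fell, where 4.76% of all tested genes rose and 4.10% fell. The 10 were Cd36, Cpt1a, Slc25a20, Acadl, Hadha, Hadhb, Eci2, Etfdh, Angptl4 and Plin2. Angptl4 met the signal filter through P0 arrays alone, so its place in this count is not independent of the filter. Among the 13 tested mitochondrial oxidation genes, 4 rose, and 10 were above 0 and 3 below. The median difference was 0.36 over the 30 genes and 0.01 over all tested genes. In RNA of a whole organ, a change in the number of cells of a type and a change in RNA per cell cannot be told apart.

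Cd36, the fatty acid carrier of the plasma membrane, had 10.63, 11.03, 11.55, 11.58 and 11.86 log2 signal in the P0 wild-type arrays, against 9.30, 9.59, 9.31 and 9.46 in the E18.5 wild-type arrays. The P0 arrays were all above the E18.5 arrays, and the gene rose by 1.92 ± 0.21, a 3.78-fold change (adjusted p = 0.00012). Cpt1a, the rate-limiting carnitine palmitoyltransferase of the outer mitochondrial membrane, had 9.05, 9.28, 8.45, 8.95 and 9.40 at P0, against 7.24, 6.87, 6.89 and 7.31 at E18.5. Again the ages did not overlap, and the difference was 1.95 ± 0.22 (3.86-fold, adjusted p = 0.000215). Slc25a20, which carries acylcarnitines across the inner membrane, rose by 0.68 ± 0.21 with an adjusted p of 0.0492, at the edge of the threshold. Cpt2, the palmitoyltransferase of the inner membrane, differed by -0.09 ± 0.18 and did not pass the test.

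**Figure D1:**
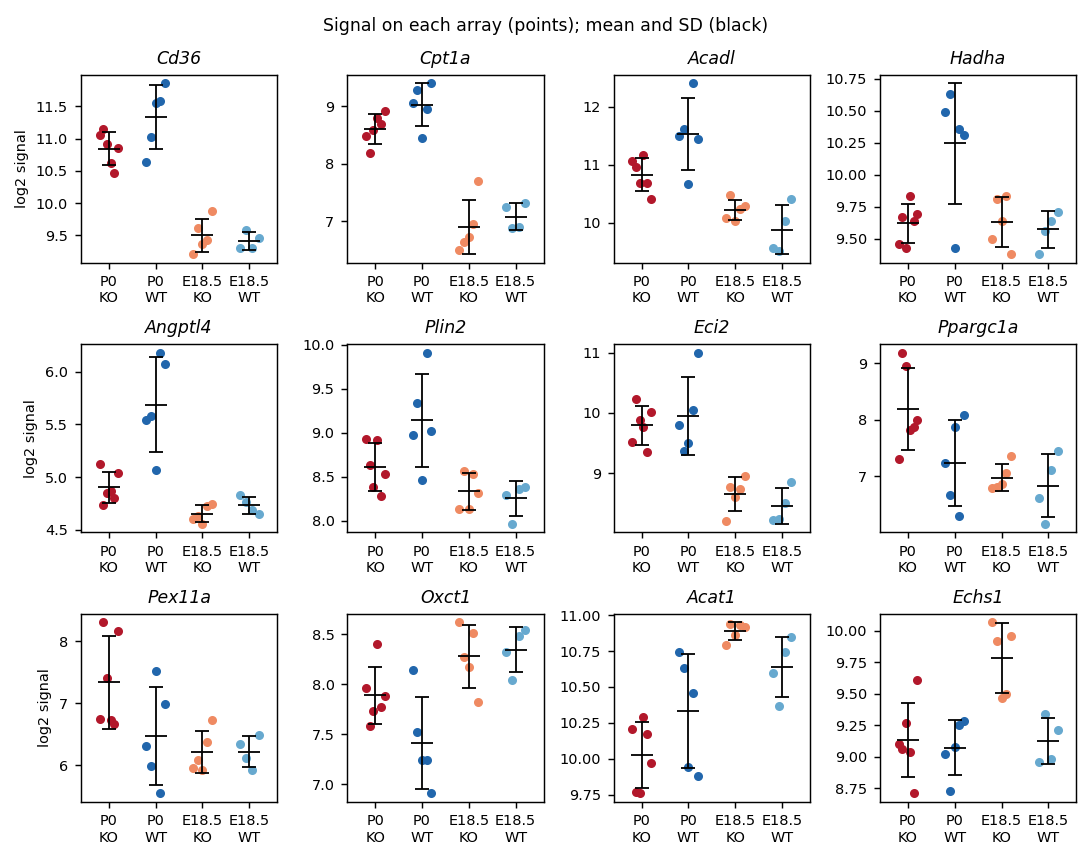
Log2 signal of 12 genes of the module on every array (points), with the mean and SD of each group in black; groups run from P0 knockout (KO) and P0 wild type (WT) to E18.5 KO and E18.5 WT, and each panel has its own scale, which does not start at 0. Cd36, Cpt1a and Eci2 lie higher at P0 in both genotypes, while P0 wild-type array 3 sits at 9.43 for Hadha, below the other 4 of its group (10.31 to 10.63).

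Among the mitochondrial enzymes, Acadl, the long-chain acyl-CoA dehydrogenase, had 11.50, 11.61, 10.66, 12.41 and 11.45 log2 signal in P0 wild-type arrays, against 9.57, 9.51, 10.03 and 10.41 in E18.5 wild-type arrays. The lowest P0 array, number 3, was close to the highest E18.5 array, and the rise was 1.64 ± 0.26 (3.12-fold, adjusted p = 0.00142). Eci2, an enoyl-CoA isomerase needed for unsaturated chains, was listed here with the mitochondrial genes, and its place in the cell was not measured. It had 9.80, 9.37, 9.51, 10.05 and 11 at P0, against 8.23, 8.25, 8.51 and 8.86 at E18.5. All P0 arrays stood above all E18.5 arrays (1.48 ± 0.27, adjusted p = 0.00349). Hadha and Hadhb, the subunits of the trifunctional protein that does the last steps on long chains, rose by 0.67 ± 0.18 and 0.88 ± 0.20 (adjusted p = 0.0256 and 0.0122). Etfdh, which passes electrons from electron transfer flavoprotein to ubiquinone, rose by 0.59 ± 0.14 (adjusted p = 0.0166), and Etfa, a subunit of that flavoprotein, differed by 0.13 ± 0.15.

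In wild type the test was not passed by the other 9 mitochondrial oxidation genes. Their differences were 0.82 for Acaa2 (a thiolase), 0.50 for Decr1 (a dienoyl-CoA reductase), 0.40 for Acot2 (an acyl-CoA thioesterase), 0.38 for Acadvl and 0.35 for Acadm (dehydrogenases of very long and medium chains), 0.10 for Acads (the short-chain one), -0.04 for Hadh (the hydroxyacyl-CoA dehydrogenase), -0.05 for Echs1 and -0.40 for Eci1. Acot2 has a near copy, Acot1, so its signal can hold both. The PPAR targets Angptl4, a secreted inhibitor of lipoprotein lipase, and Plin2, a lipid droplet coat protein, rose by 0.95 ± 0.16 and 0.89 ± 0.21 (adjusted p = 0.00224 and 0.0167). The E18.5 wild-type signals of Angptl4, 4.65 to 4.84 log2, lay at or below their array medians (4.81 to 4.94 over all arrays), so the size of its difference rests on a baseline near the middle of all probe sets. It met the signal filter through P0 arrays alone, namely all 5 wild-type and 3 knockout ones. None of the 4 peroxisomal genes passed the test: Hsd17b4, the multifunctional enzyme, differed by 0.28, the peroxisome division factor Pex11a by 0.26, the bifunctional enzyme Ehhadh by -0.04 and the thiolase Acaa1a by -0.37. The regulators gave 0.40 for Ppargc1a (PGC-1α) and -0.05 for Ppara (PPARα), neither past the test.

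Of the 3 ketone genes, 1 passed the test in wild type. Oxct1, the enzyme that activates acetoacetate so that ketone bodies can be burned, fell by 0.94 ± 0.22 (adjusted p = 0.0131). Its P0 wild-type signals were 8.14, 7.52, 7.24, 7.24 and 6.91 log2, against 8.32, 8.04, 8.48 and 8.54 at E18.5, so that P0 array 1 lay within the E18.5 range. Acat1, the mitochondrial acetoacetyl-CoA thiolase, differed by -0.31 ± 0.17, and Bdh1, the hydroxybutyrate dehydrogenase, by -0.12 ± 0.13.

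Across the 30 genes, 9 were higher in every P0 wild-type array than in every E18.5 wild-type array, and none was lower in all, where 6.24% and 5.36% of all tested genes were. The 9 were Cd36, Cpt1a, Acadl, Hadhb, Eci2, Etfdh, Hsd17b4, Angptl4 and Plin2. Here too Angptl4 counts although it met the signal filter through P0 arrays alone. In this contrast 14 of 15 liver markers and 5 of 7 intestinal markers lay below 0, with no liver and 1 intestinal marker past the test, while 3 of 6 muscle markers lay on each side of 0. Of the 6 macrophage markers, Cd68 rose and C1qa fell, and the adrenal marker Cyp11a1 fell by 0.68. Among markers of the pancreas itself, 1 of 9 acinar ones rose and 2 fell, and 2 of 10 endocrine ones rose and 1 fell. Their part in the result was not tested. With liver and intestinal means added as covariates, 10 of the genes rose and 1 fell, where 492 rose and 421 fell over all tested genes. With the muscle and brown adipocyte means, 6 rose and 1 fell, where 848 and 722 did. When the 5 arrays with over 7 log2 of gut or muscle markers were left out, the counts were 10 and 1. Over all tested genes they were then 737 and 648. Without E18.5 wild-type array 2, 6 of the genes rose, and over all tested genes 365 rose, against 856 with every array.

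**Figure D2:**
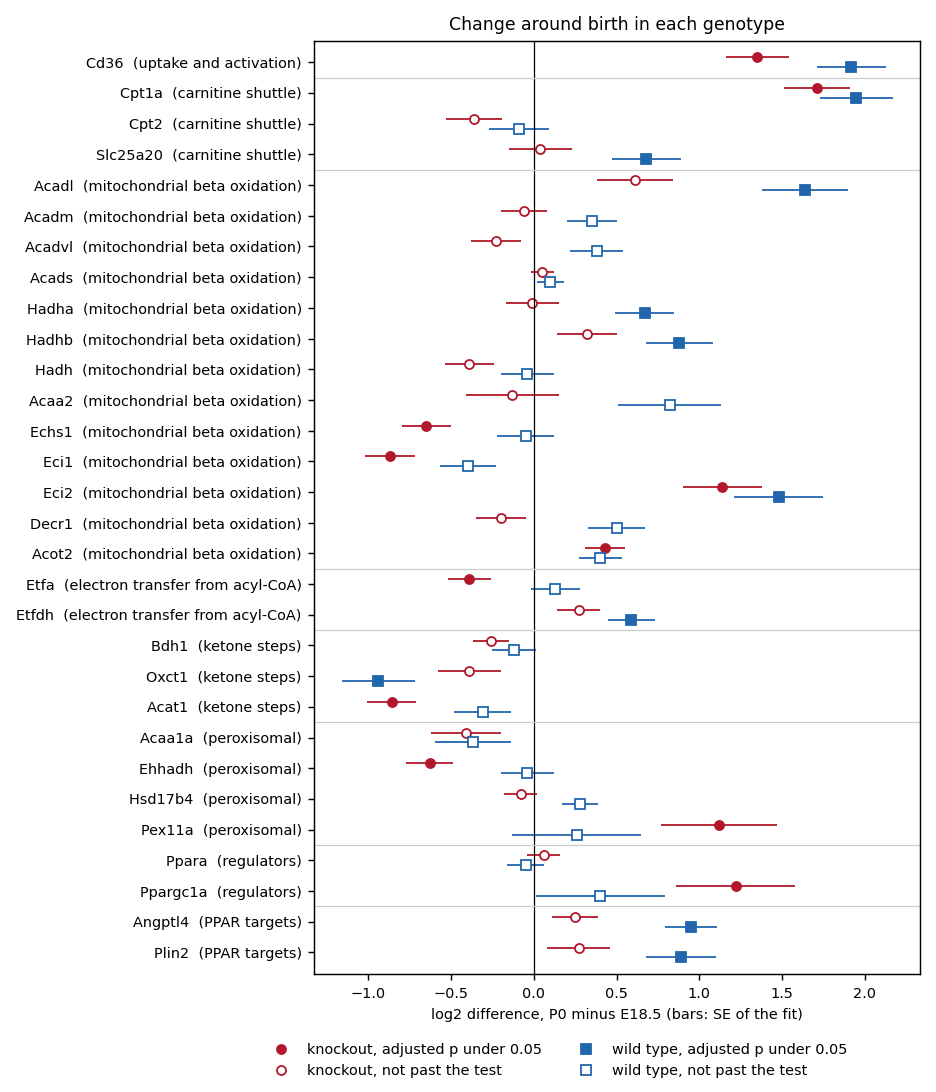
Log2 difference of P0 from E18.5 for each of the 30 tested genes, in knockout and in wild type, with bars for the SE of the fit; filled symbols passed the test at an adjusted p under 0.05 and open symbols did not. Cd36, Cpt1a and Eci2 are filled on the right in both genotypes, while Echs1, Eci1, Etfa, Acat1 and Ehhadh are filled on the left in knockout.

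Promoter sequence was examined because several of these genes moved together and because PPARs and related receptors bind repeats of one hexamer. The windows were the 250 bases before the gene start, read from RefSeq (assembly GRCm38.p6). A window was found for 25 of the 30 genes, with 26 windows among them. A gene counted once if any of its windows matched, whereas the shares over all genes are per window. The hexamer AGGTCA, searched on both strands, was present in 6 of the 25 (24.0%), namely Acadm, Acadvl, Cd36, Cpt1a, Echs1 and Plin2, against 14% of 32851 windows over all genes. The exact direct repeat AGGTCANAGGTCA was in none of the 25 and in 0.0335% of all windows. With up to 2 mismatches it matched Cd36, Echs1, Etfa and Plin2 (16%), against 3.24% of all windows. The nonamer TCAAGGTCA, bound by oestrogen-related receptors, was in none of the 25, against 0.387% of all windows. In their exact form both longer motifs contain the hexamer, so those counts overlap. A match with mismatches need not contain it, as in Etfa. A match is a string of letters and no evidence of binding.

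The windows of 5 genes that rose in wild type are shown, 3 with the hexamer and 2 without it. They run 5′ to 3′ on the strand of the gene and end at the base before its start, and capitals mark AGGTCA or its reverse complement TGACCT. Cd36 lies at chr5:17835897-17836146 on the minus strand, Cpt1a at chr19:3323051-3323300 on the plus strand, Plin2 at chr4:86670060-86670309 on the minus strand, Acadl at chr1:66863310-66863559 on the minus strand and Hadhb at chr5:30155003-30155252 on the plus strand.
Cd36: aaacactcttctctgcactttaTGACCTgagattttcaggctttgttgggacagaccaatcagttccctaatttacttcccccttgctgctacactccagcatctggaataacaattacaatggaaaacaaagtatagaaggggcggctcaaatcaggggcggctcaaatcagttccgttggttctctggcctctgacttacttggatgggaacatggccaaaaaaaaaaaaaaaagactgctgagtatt
Cpt1a: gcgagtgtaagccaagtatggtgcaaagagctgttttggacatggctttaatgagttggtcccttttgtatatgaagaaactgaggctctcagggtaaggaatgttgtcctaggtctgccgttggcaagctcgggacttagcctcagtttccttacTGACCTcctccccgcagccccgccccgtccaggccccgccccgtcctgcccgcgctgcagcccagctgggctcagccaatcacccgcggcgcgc
Plin2: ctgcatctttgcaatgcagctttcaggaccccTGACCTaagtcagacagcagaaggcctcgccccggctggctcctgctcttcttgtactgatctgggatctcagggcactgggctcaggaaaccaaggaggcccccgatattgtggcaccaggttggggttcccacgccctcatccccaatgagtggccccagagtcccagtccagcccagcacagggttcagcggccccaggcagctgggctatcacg
Acadl: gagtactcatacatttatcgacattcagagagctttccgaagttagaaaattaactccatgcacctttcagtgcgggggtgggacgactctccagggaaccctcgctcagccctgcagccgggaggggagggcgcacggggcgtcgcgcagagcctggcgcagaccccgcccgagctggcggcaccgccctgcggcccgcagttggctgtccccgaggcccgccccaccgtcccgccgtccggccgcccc
Hadhb: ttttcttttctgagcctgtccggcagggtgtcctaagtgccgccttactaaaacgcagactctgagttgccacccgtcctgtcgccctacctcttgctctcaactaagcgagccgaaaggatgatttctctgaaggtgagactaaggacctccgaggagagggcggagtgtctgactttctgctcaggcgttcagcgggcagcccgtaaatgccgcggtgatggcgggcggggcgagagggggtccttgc
In these 5 windows the hexamer stood as its reverse complement each time, 228 to 223 bases before the start of Cd36, 94 to 89 before that of Cpt1a and 218 to 213 before that of Plin2. The window of Hadhb also reaches towards Hadha, which is transcribed from the other strand with a start 273 bases away, so the genes of both trifunctional protein subunits share one intergenic stretch.

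In knockout pancreas the same comparison of ages gave a more even balance. Of the 30 genes, 6 rose and 5 fell, where 11.3% of all tested genes rose and 11.7% fell (23% in either direction), and the median difference was -0.04 against -0.00 over all tested genes. Cd36, Cpt1a and Eci2 rose in both genotypes, which makes 50.0% of the knockout list and 30.0% of the wild-type list, and no gene fell in both. The knockout and wild-type comparisons share no arrays.

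Cd36 had a lowest, median and highest signal of 10.46, 10.89 and 11.16 log2 in the 6 P0 knockout arrays, against 9.21, 9.61, 9.37, 9.43 and 9.87 in the E18.5 knockout arrays (1.35 ± 0.19, adjusted p = 0.000119). For Cpt1a these 3 values were 8.18, 8.63 and 8.91, against 6.49, 6.64, 6.72, 6.95 and 7.69 at E18.5 (1.71 ± 0.20, adjusted p = 3.39e-05). In both genes every P0 knockout array was above every E18.5 knockout array. Eci2 ran from 9.36 through a median of 9.83 to 10.24 at P0, against 8.21, 8.77, 8.61, 8.74 and 8.96 at E18.5, again without overlap (1.14 ± 0.24, adjusted p = 0.0025). Acot2 rose by 0.43 ± 0.12 (adjusted p = 0.0165).

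Ppargc1a rose by 1.22 ± 0.36 in knockout (adjusted p = 0.0194). Its P0 knockout signals had a lowest, median and highest of 7.30, 7.94 and 9.19 log2, against 6.79, 6.81, 6.86, 7.06 and 7.35 in the E18.5 knockout arrays. The lowest P0 array lay inside the E18.5 range, and P0 arrays 2 and 3 were far above it. Pex11a, a PPAR-responsive gene of peroxisome division, rose by 1.12 ± 0.35 (adjusted p = 0.0271), with a P0 spread of 0.75 SD.

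In knockout, Eci1, Acat1, Echs1, Ehhadh and Etfa fell. Eci1 is a mitochondrial enoyl-CoA isomerase. It had a lowest, median and highest of 7.27, 7.47 and 7.69 log2 at P0, against 8.45, 8.55, 8.43, 8.09 and 8.20 at E18.5 (-0.87 ± 0.15, adjusted p = 0.000759). Acat1 had 9.76, 10.07 and 10.29 at P0, against 10.79, 10.94, 10.86, 10.93 and 10.92 at E18.5 (-0.86 ± 0.15, adjusted p = 0.000653). Neither gene overlapped between the ages. Echs1, the short-chain enoyl-CoA hydratase, had 8.71, 9.08 and 9.61 at P0, against 10.07, 9.92, 9.47, 9.50 and 9.96 at E18.5, with 1 P0 array inside the E18.5 range (-0.65 ± 0.15, adjusted p = 0.00459). Ehhadh, the peroxisomal bifunctional enzyme, had 5.84, 6.03 and 6.41 at P0, against 6.49, 7.05, 6.62, 6.48 and 7.01 at E18.5, without overlap (-0.63 ± 0.14, adjusted p = 0.00386). Etfa fell by 0.39 ± 0.13 (adjusted p = 0.0448).

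Within knockout, 4 genes were higher and 4 lower in every P0 array than in every E18.5 array, where 5.90% and 6.55% of all tested genes were. The higher ones were Cd36, Cpt1a, Eci2 and Acot2, and the lower ones Eci1, Etfa, Acat1 and Ehhadh. In the same comparison 7 of 7 intestinal markers were below 0 (2 past the test). Of 15 liver markers 12 were above 0, and the only one past the test, Ambp, fell. The macrophage markers were above 0 in 6 of 6 (3 past the test), while Cox7a1 fell by 1.24 (adjusted p = 0.00796) and Cyp11a1 by 0.47. Among markers of the pancreas itself, 1 of 9 acinar ones rose and 2 fell, and 0 of 10 endocrine ones rose and 1 fell. When the same 5 arrays were left out, which leaves 2 E18.5 knockout arrays, Cd36 (1.27 ± 0.28) and Cpt1a (1.36 ± 0.28) rose, with adjusted p of 0.0373 and 0.0275, and no gene fell. The genes that lost their call kept their direction: Eci1 differed by -0.82 ± 0.24, Acat1 by -0.92 ± 0.23, Echs1 by -0.56 ± 0.22, Ehhadh by -0.73 ± 0.20, Etfa by -0.29 ± 0.19 and Eci2 by 1.02 ± 0.36. Acot2 (0.53 ± 0.15), Pex11a (1.14 ± 0.54) and Ppargc1a (1.16 ± 0.54) were also no longer called. The adjusted p of these 9 genes ran from 0.0513 for Acat1 to 0.45 for Etfa. In that fit the calls over all genes were 147 higher and 328 lower, against 2027 and 2112 with every array. With the liver and intestinal means as covariates 4 genes rose and 3 fell, where 778 rose and 809 fell over all tested genes. With the muscle and brown adipocyte means 2 rose and 5 fell, where 1133 and 1121 did.

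At birth, most of these genes had lower means without inceptor, but no gene passed the test. In P0 knockout against P0 wild type, 24 of 30 genes were below 0, with a median of -0.23, while 47.9% of all tested genes were below 0, with a median of 0.01. Of all 17993 tested genes, limma called 0.0111% and 1576 had an unadjusted p under 0.05. By limma 0 genes of the module were called and 13 had an unadjusted p under 0.05. The genes below 0 were the uptake gene, all 3 carnitine shuttle genes, 12 of 13 mitochondrial oxidation genes, both electron transfer genes, both PPAR targets and 2 each of the ketone and peroxisomal genes. The regulators were both above 0.

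Angptl4 had the smallest p. Its lowest, median and highest signals were 4.74, 4.86 and 5.12 log2 in the 6 P0 knockout arrays, against 5.54, 5.58, 5.07, 6.18 and 6.07 in the P0 wild-type arrays. All 6 knockout arrays were below the wild-type mean, and only wild-type array 3 reached into the knockout range. The difference was -0.79 ± 0.14 (adjusted p = 0.0952). The array medians ran from 4.81 to 4.94, so the knockout signals of this gene were close to the middle of all probe sets, and it lay above the median on 8 of 20 arrays. Hadha had 9.43, 9.65 and 9.83 in P0 knockout, against 10.49, 10.63, 9.43, 10.36 and 10.31 in P0 wild type. The wild-type arrays other than array 3 were above all knockout arrays, and array 3 was level with the lowest of them (-0.63 ± 0.16, adjusted p = 0.229).

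Acadl had 10.41, 10.82 and 11.17 log2 as the lowest, median and highest in P0 knockout, against 11.50, 11.61, 10.66, 12.41 and 11.45 in P0 wild type (-0.70 ± 0.23, adjusted p = 0.465). Slc25a20 had 5.29, 5.73 and 6.13 in P0 knockout, against 6.26, 6.24, 5.73, 6.85 and 6.37 in P0 wild type (-0.57 ± 0.19, adjusted p = 0.465). In both, the 4 wild-type arrays other than array 3 lay above every knockout array. The remaining differences in this direction included Acaa2 (-0.56), Plin2 (-0.53), Cd36 (-0.49), Cpt1a (-0.42), Ehhadh (-0.42), Hadhb (-0.39), Acadvl (-0.37), Hadh (-0.30), Decr1 (-0.30), Acat1 (-0.30) and Hsd17b4 (-0.24), none past the test.

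On the other side of 0 were Ppargc1a, Pex11a, Oxct1, Ppara, Echs1 and Acaa1a. Ppargc1a had 7.30, 7.94 and 9.19 log2 as the lowest, median and highest in P0 knockout, against 7.23, 6.66, 7.88, 6.30 and 8.08 in P0 wild type (0.96 ± 0.36, adjusted p = 0.5). All 6 knockout arrays were above the wild-type mean, yet the groups overlapped widely. Pex11a differed by 0.86 ± 0.35 and Oxct1 by 0.48 ± 0.19, with all 6 knockout arrays above the wild-type mean in each, and Ppara by 0.19 ± 0.10.

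**Figure D3:**
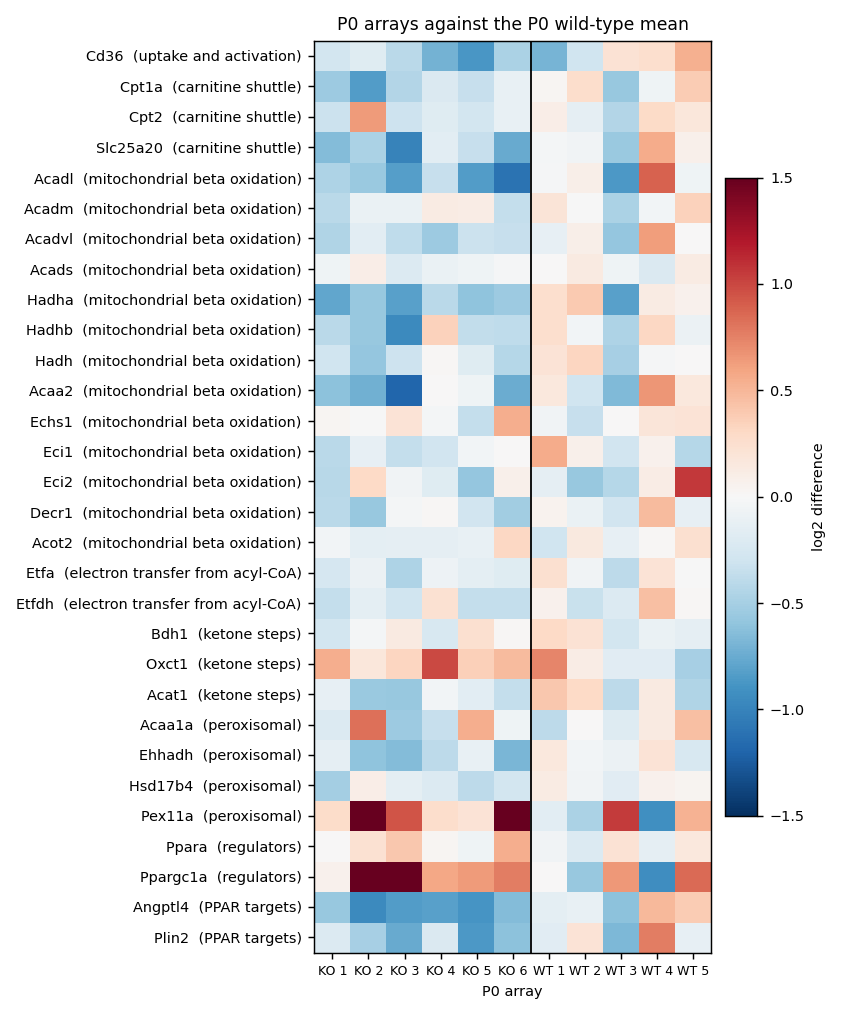
Log2 difference of each P0 array from the mean of the P0 wild-type arrays for the 30 tested genes, with the 6 knockout arrays on the left and the 5 wild-type arrays on the right; the colour scale ends at 1.5. The column of wild-type array 3 resembles those of the knockouts for Hadha, Acadl, Slc25a20 and Angptl4.

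No member separated the genotypes at P0 completely, where 0.272% of all tested genes were higher and 0.239% lower without overlap. Wild-type array 3 lay below the mean of the other wild-type arrays for 25 of 30 genes, with a median difference of -0.43. The knockout arrays lay below the wild-type mean for 20 to 25 of the genes, and the other wild-type arrays lay below the mean of the rest of their group for 9 to 17. The Elapor1 signal of array 3, 11.07 log2, was the lowest of its group and far above the P0 knockout arrays (5.58 to 6.38). Its liver marker mean of 11.29 was the highest of its group. Wild-type array 4 had nearly the same liver mean, 11.24, and lay above the mean of the rest of the group for 21 of 30 genes. Without array 3, Hadha (-0.83 ± 0.10) and Angptl4 (-0.94 ± 0.11) fell, both with an adjusted p of 0.00145, and over all tested genes 10 were called lower and 1 higher. Array 3 was singled out by its values on these same genes, so these p-values are not independent of that choice. Angptl4 also passed without knockout array 1 (-0.83, adjusted p = 0.0366) or without wild-type array 1 (-0.82, adjusted p = 0.0291). Over all tested genes 37 were called higher and 8 lower in the first of these fits, and 36 and 4 in the second. With every array these counts were 0 and 2. Beside this, all 15 liver markers were above 0 in P0 knockout, with a median of 0.92 and none called. With the liver and intestinal means as covariates, the module's median was -0.24. It was -0.27 once the 5 arrays with over 7 log2 of gut or muscle markers were dropped. That choice took no account of liver markers. At P0 it dropped knockout array 4 (liver mean 10.67) and kept knockout array 6 (12.85), so it is no check on liver RNA.

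At E18.5 the direction was the other one. Knockout means were above wild-type means for 24 of 30 genes, with a median of 0.12, where 56.4% of all tested genes were above 0 with a median of 0.02. None of the 30 passed limma's test and 3 had an unadjusted p under 0.05. Of all 17993 tested genes, 0.0111% were called and 980 had an unadjusted p under 0.05. Echs1 had 10.07, 9.92, 9.47, 9.50 and 9.96 log2 in E18.5 knockout arrays, against 8.96, 9.34, 8.98 and 9.21 in E18.5 wild-type arrays. It was the one gene of the 30 higher in every knockout array than in every wild-type array, where 1.74% of all tested genes were (0.66 ± 0.17, adjusted p = 0.592).

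Decr1 had 8.55, 9.04, 8.67, 8.73 and 8.83 log2 in E18.5 knockout, against 7.97, 8.29, 8.52 and 8.68 in E18.5 wild type (0.40 ± 0.17, adjusted p = 0.893). Etfa had 11.48, 11.42, 11.44, 11.75 and 11.24 in knockout, against 11.06, 10.70, 11.40 and 11.43 in wild type (0.32 ± 0.15, adjusted p = 0.911). Acadm had 7.79, 8.24, 7.88, 8.03 and 8.01 in knockout, against 7.46, 7.70, 7.71 and 7.95 in wild type (0.29 ± 0.15, adjusted p = 0.921). All 5 knockout arrays were above the wild-type mean in these 3 genes, and the groups overlapped. In the same comparison 12 of 15 liver markers were below 0, with a median of -0.58, and 6 of 6 skeletal muscle markers were above 0, with a median of 0.40; none was called. With the muscle and brown adipocyte means as covariates the module's median was 0.15.

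**Figure D4:**
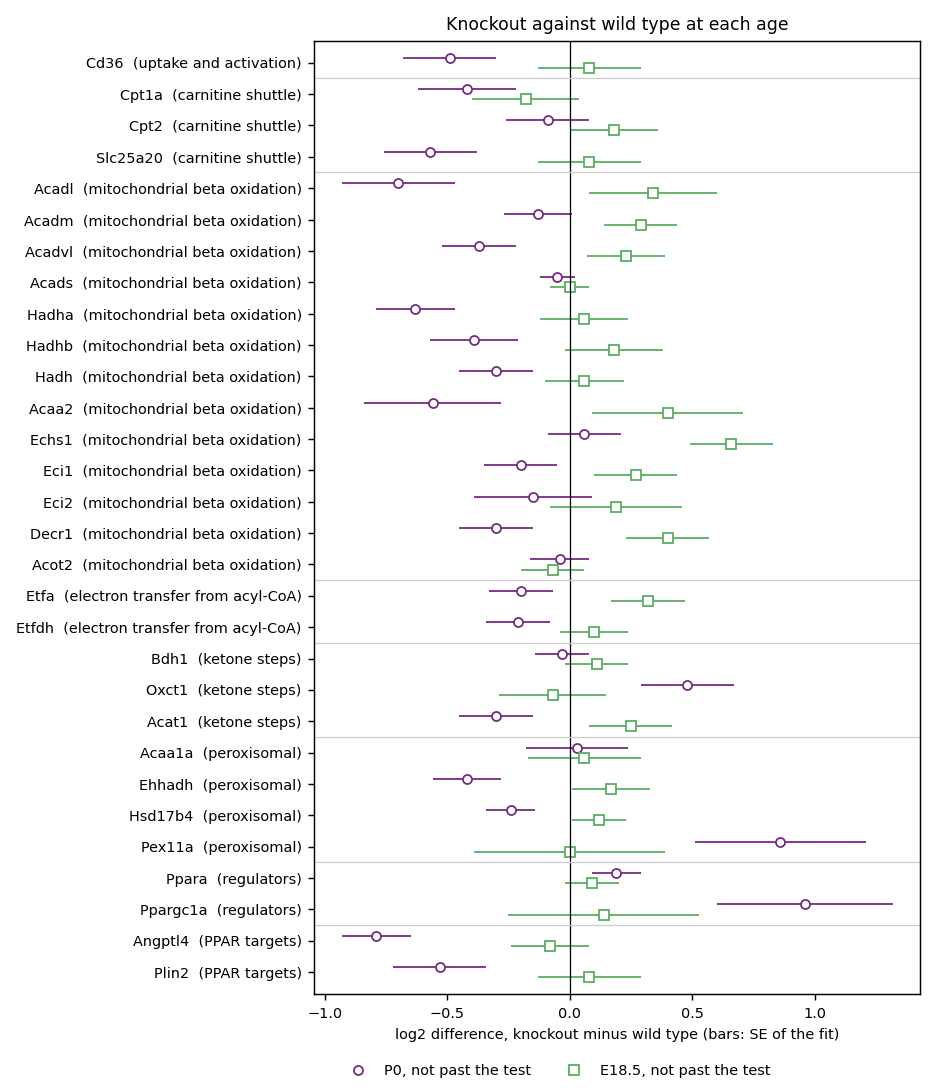
Log2 difference of knockout from wild type for each of the 30 tested genes at P0 (circles) and at E18.5 (squares), with bars for the SE of the fit; all symbols are open because none passed the test. Most circles lie left of 0 (24 of 30 genes) and most squares right of it (24 of 30).

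Whether the knockout effect differed between the ages was tested directly, on the arrays of all the comparisons above. The difference was below 0 for 25 of 30 genes, with a median of -0.44, against 53.0% of all tested genes with a median of -0.01. Of all 17993 genes limma called 0 (0%), with 1256 at an unadjusted p under 0.05. Of the 30 it called 0, with 13 at an unadjusted p under 0.05. The smallest p-values belonged to Angptl4 (-0.71 ± 0.21, adjusted p = 0.565), Decr1 (-0.70 ± 0.22, adjusted p = 0.585), Acadl (-1.03 ± 0.35, adjusted p = 0.592) and Hadha (-0.69 ± 0.24, adjusted p = 0.622). A gene that rose with age in wild type and not in knockout, such as Acadl or Hadha, is thus not shown to differ between the genotypes. For the knockout difference averaged over both ages, limma called 0.0167% of all 17993 tested genes, with 1180 at an unadjusted p under 0.05. Over the 30 genes the median was -0.04, and limma called 0 with 3 at an unadjusted p under 0.05. The smallest p-values there were those of Angptl4 (-0.43 ± 0.11, adjusted p = 0.52), Echs1 (0.36 ± 0.11, adjusted p = 0.603), Hadha (-0.28 ± 0.12, adjusted p = 0.706) and Ppargc1a (0.55 ± 0.27, adjusted p = 0.751).

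Averaged by step, the 13 mitochondrial oxidation genes gave array means of 8.38 to 8.65 log2 in P0 knockout, against 8.85, 8.77, 8.35, 9.02 and 8.89 in P0 wild type. At E18.5 these means ran from 8.36 to 8.67 in knockout and from 8.01 to 8.52 in wild type. The 3 carnitine shuttle genes averaged 7.13 to 7.53 in P0 knockout and 7.19 to 7.97 in P0 wild type, and 6.71 to 7.10 in E18.5 knockout and 6.75 to 7.10 in E18.5 wild type. For the 3 ketone genes the array means were 7.61 to 7.99 in P0 knockout and 7.39 to 8.23 in P0 wild type, against 8.11 to 8.46 in E18.5 knockout and 7.96 to 8.38 in E18.5 wild type. These averages describe the arrays and were not tested.

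**Figure D5:**
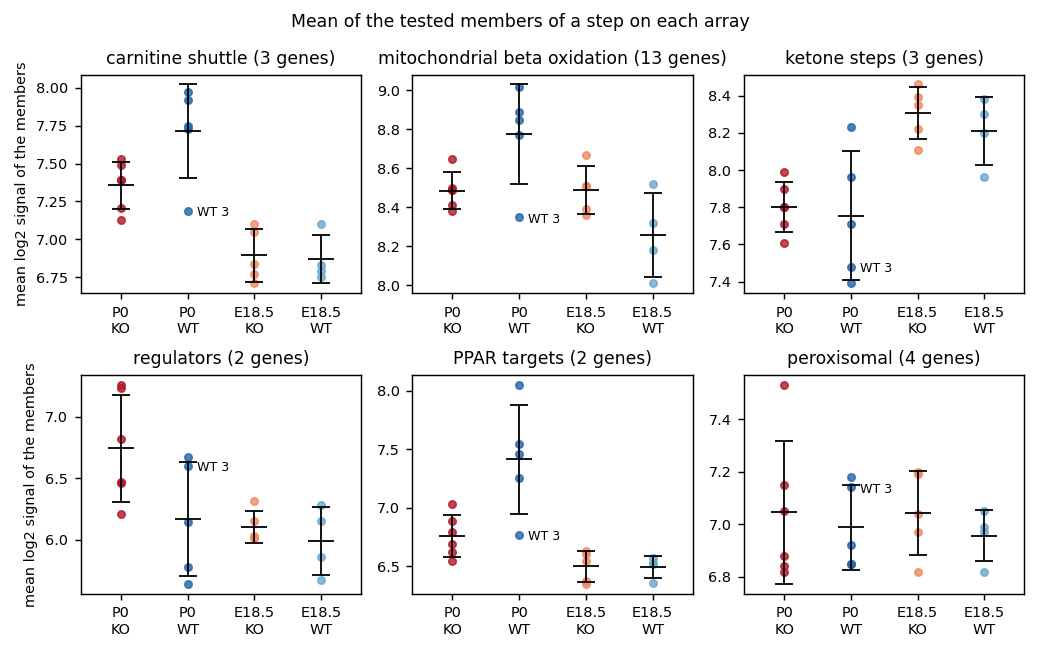
Mean log2 signal of the tested genes of 6 steps on every array (points), with the mean and SD of each group in black, from P0 knockout (KO) and P0 wild type (WT) to E18.5 KO and E18.5 WT; axes do not start at 0. For mitochondrial oxidation, 4 of the 5 P0 wild-type arrays (8.77 to 9.02) lie above all P0 knockout arrays (8.38 to 8.65), and wild-type array 3 (8.35) lies below them.

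Other genes of the same pathways were listed beside the module: 142 genes, of which 108 were tested. In wild type, 7 of the 108 rose with age and 12 fell, with a median of 0.01, where 4.76% of all tested genes rose and 4.10% fell. Pdk4, which shuts pyruvate dehydrogenase and so spares glucose, rose most, with 11.70 ± 2.04 log2 in P0 and 7.07 ± 0.46 in E18.5 wild-type arrays (SD, n = 5 and 4; difference 4.63 ± 0.91, adjusted p = 0.00544). Txnip, a glucose-responsive arrestin relative, rose by 2.10, the thioesterase Acot1 by 1.34, the fatty acid binder Fabp4 by 1.12 and lipoprotein lipase, Lpl, by 0.95. The largest falls were in another binder, Fabp5 (-1.60), the desaturases Fads2 (-1.30) and Scd1 (-0.80), the lipolysis inhibitor G0s2 (-1.20) and the propionate route enzyme Mcee (-0.79).

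In knockout, 14 of the 108 rose with age and 25 fell, with a median of -0.04, where 11.3% of all tested genes rose and 11.7% fell. Pdk4 had 11.56 ± 1.73 log2 in P0 and 7.04 ± 0.35 in E18.5 knockout arrays (SD, n = 6 and 5; difference 4.52 ± 0.82, adjusted p = 0.000869). Txnip (2.40), the phosphatidate phosphatase and coactivator Lpin1 (1.23), Fabp4 (1.19) and Lpl (1.16) followed. The largest falls were in Bdh2 (-1.65), the thioesterase Acot13 (-1.5), the peroxisomal reductase Pecr (-1.13), Fabp5 (-1.08) and Fads2 (-0.99). Bdh2 varied strongly among the E18.5 knockout arrays (7.08 ± 1.09, SD, n = 5).

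Between genotypes none of the 108 passed the test at either age. At P0, 52 were below 0 and 56 above, with a median of 0.01. Of the 108, 10 had an unadjusted p under 0.05, where 1576 of all 17993 tested genes had. The smallest p-values were those of the glycerol channel Aqp7 (-0.29 ± 0.09, adjusted p = 0.418), the acetyl-CoA carboxylase Acacb (-0.23 ± 0.09, adjusted p = 0.531) and Mcee (0.33 ± 0.13, adjusted p = 0.536). At E18.5, 70 were above 0 with a median of 0.03. Of the 108, 8 had an unadjusted p under 0.05, where 980 of all tested genes had. The 8 were led by Acot13 (0.81 ± 0.22, adjusted p = 0.592), the peroxisomal import receptor Pex7 (0.40 ± 0.13, adjusted p = 0.768) and Pccb (0.32 ± 0.12, adjusted p = 0.796). In the difference of the knockout effect between ages, 64 were below 0 and none was called. Of the 108, 12 had an unadjusted p under 0.05, where 1256 of all tested genes had. The smallest p-values were those of Pccb (-0.53), Pex7 (-0.58) and Pecr (-0.74). For the mean of both ages they were those of Mcee (0.29), Acss2 (0.16) and Acot13 (0.39), and none was called. There 5 of the 108 had an unadjusted p under 0.05, where 1180 of all tested genes had.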

How the data were processed

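Total RNA of pancreas was isolated with an RNeasy Lipid Tissue kit, amplified and biotin-labelled with NuGEN kits and hybridised to Affymetrix transcript arrays, per the labels' protocols. The authors deposited log2 signals from RMA, for which the submitters' processing notes name Affymetrix Expression Console 1.4.1.46; the log2 scale was read from the values, which run from 2.17 to a ceiling of 19.932 of unstated origin. No genome build of the array was given in the sources used here. The signal of array probes gives no count depth, so the number of arrays limits the precision.

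Of 65956 probe sets, 30604 had a single gene symbol, 2146 several and 33206 none. Limma 3.58.1 (R 4.3.3; lmFit and eBayes, two-sided) was run once over the 20 arrays with 4 group means, leaving 16 residual and 17.9 total degrees of freedom, on the 17993 genes kept by the signal filter. It was tested on simulated data. Contrasts were P0 minus E18.5 in each genotype, knockout minus wild type at each age and over both, and the difference between ages. Further tools were pandas 2.3.3 and matplotlib 3.10.9 under Python 3.11.15.

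The members, pathway lists and marker lists were chosen with earlier results of these data known, so no p is given for a list. In each contrast of a single group with another, signals are given for up to 4 called members in each direction with the largest change. Where none was called, the 4 with the smallest p are given. These signals are printed for every array, except that P0 knockout arrays are given by their lowest, median and highest. The contrasts that combine all groups name the 4 smallest p by their differences. Other pathway genes are named by the 5 largest called changes in each direction, or else the 3 smallest p. Etfb, Ppard, Acsl1 and Ucp2 were not tested, and of 142 listed pathway genes 128 had a named probe set. Alternatives were the signal filter, normalization, variance model, array weights, samples in the fit, replicate block, covariates, threshold, probe set rule and leaving out each array. The removal of the 5 arrays rich in intestinal or muscle RNA was chosen after seeing the data.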

Additional observations from a re-analysis of the deposited data

Results flagged for a closer look

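In 5 of 120 sets, each 1 gene in 1 group of arrays, 1 array stood apart from the others by Dixon's 95% criterion, which chance alone meets in about 1 set in 20. Hadha, a trifunctional protein subunit, had 9.43 log2 on P0 wild-type array 3, against 10.31 to 10.63 on the others. Cpt2, the inner membrane palmitoyltransferase, had 8.47 on P0 knockout array 2, against 7.51 to 7.72. Etfdh had 8.52 on P0 knockout array 4, the array rich in muscle markers, against 7.93 to 8.14. Acot2 had 6.58 on P0 knockout array 6, against 6.12 to 6.23. Hadh, the hydroxyacyl-CoA dehydrogenase, had 9.13 on E18.5 wild-type array 2, against 8.85 to 8.87.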

How the results depend on the processing

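No result changed direction past the threshold in any of 35 alternatives. Of 22 calls over the 6 contrasts, 7 were kept in each alternative that gave a value, and 14 of 158 results without a call passed an adjusted p of 0.05 in some alternative. The weakest calls were Slc25a20 in wild type and Etfa in knockout, each lost in 22 alternatives; Hadha in wild type and Pex11a in knockout were lost in 10 each. For P0 against E18.5 in wild type, 6 genes rose and 0 fell with only the arrays compared, where 540 and 468 of all tested genes did. With the muscle and brown adipocyte covariates 6 rose, where 848 of all tested genes did. Leaving out single arrays gave 6 to 13 risen and 1 to 2 fallen, where all tested genes gave 365 to 971 and 305 to 851. With the running sample number as a covariate the median was 0.56 in wild type and 0.096 in knockout, where 2 genes fell. Over all tested genes the medians were then 0.021 and 0.01, and 983 fell in knockout. In knockout, 3 fell with the liver and intestinal covariates, and 2 rose with the muscle and brown adipocyte covariates. There 2 rose and 0 fell once the 5 arrays with over 7 log2 of gut or muscle markers were dropped. That alternative has fewer arrays and was added after seeing the data. Leaving out single arrays gave 5 to 7 risen and 4 to 7 fallen in knockout, where all tested genes gave 1569 to 2193 and 1635 to 2200. Between genotypes at P0, 1 gene fell at an adjusted p under 0.10 and 0 to 2 when single arrays were left out, and for the mean of both ages 0 to 1. Over all tested genes, leaving out single arrays gave 1 to 10 fallen at P0 and 3 to 5 for the mean of both ages. It gave 0 to 37 risen at P0 and 0 to 1 for the mean of both ages. For the 0.10 threshold no count over all tested genes is given. Other causes were not tested. Same-numbered knockout and wild-type arrays correlated by -0.031 to 0.245 over 9 pairs. In 4 of the 9, the knockout array correlated best with the wild-type array of its own number. The labels do not say whether the numbers pair samples, and these correlations cannot decide it. With the replicate block 10 genes rose and 1 fell in wild type, and 6 rose and 4 fell in knockout. Over all tested genes 571 rose and 555 fell in wild type, and 1680 and 1847 did in knockout. The module's medians were 0.315 in wild type, -0.021 in knockout, -0.239 at P0, 0.115 at E18.5 and -0.438 for their difference. Angptl4 was not tested by the stricter signal filter.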

Other observations

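The probe sets that Etfb and Ppard share with another symbol were read as well, without a test. The one of Etfb, the second subunit of electron transfer flavoprotein, and of the microRNA gene Mir7051 had 9.40, 9.66, 9.78, 9.81, 10.14 and 9.78 log2 in the P0 knockout arrays, against 10.20, 10.40, 9.41, 10.48 and 10.37 in the P0 wild-type arrays. P0 wild-type array 3 was again the low one of its group, at the level of the lowest knockout array. At E18.5 the means were 10.27 in knockout and 10.22 in wild type. The probe set of Ppard, the PPAR of most tissues, and of 1810013A23Rik had a mean of 6.29 in P0 knockout and 6.27 in P0 wild type, and of 6.43 in E18.5 knockout and 6.48 in E18.5 wild type.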
